A study of Mus musculus with 67 samples.

Results

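The nuclear complex I genes were described here as every row of the bulk RNA-seq table whose symbol starts with Nduf, which gave 46 of the 29579 genes listed. Complex I, the NADH:ubiquinone oxidoreductase of the inner mitochondrial membrane, takes electrons from NADH, passes them along a chain of iron-sulfur clusters to ubiquinone and pumps protons across the membrane, and it is the main entry point of electrons into the respiratory chain. Its core subunits are encoded partly in the nucleus and partly in mitochondrial DNA, the nuclear accessory subunits surround this core, and dedicated assembly factors build the complex but are absent from the finished enzyme. Of the 46 genes, 3 encode core subunits of the NADH-oxidising module, 4 encode core subunits of the ubiquinone-binding module, 9 encode accessory subunits of the matrix arm, 20 encode accessory subunits of the membrane arm and 8 encode assembly factors. The other 2, Ndufa4 and Ndufa4l2, carry the family name but are related proteins: the Ndufa4 product is a subunit of complex IV, and Ndufa4l2 is known as a gene induced in hypoxia. The 7 mitochondrially encoded mt-Nd genes served only as a reference.

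RNA-seq was carried out on 67 mouse libraries, 49 from small intestinal organoids in 10 culture conditions and 18 from small intestinal crypts in 9 groups. ENR, the conventional medium, holds EGF at 50 ng/mL, Noggin at 100 ng/mL and R-Spondin 1 at 500 ng/mL. The 8C medium holds LDN193189 at 0.2 µM, GSK-3 Inhibitor XV at 0.1 µM, Pexmetinib at 1 µM, VPA (valproic acid, a histone deacetylase inhibitor) at 500 µM, EPZ6438 (an EZH2 inhibitor) at 2 µM, EGF at 50 ng/mL, bFGF at 20 ng/mL and R-Spondin 1 conditioned medium at 10%. The suffixes -V, -E and -VE name 8C medium without VPA, without EPZ6438 and without both, the suffixes -GSK3i, -Pex, -EGF and -bFGF name single omissions, and ENR +VE is ENR medium with VPA and EPZ6438 at doses that the labels do not give. There were 7 libraries each of ENR, 8C, 8C -VE and 8C -E, 6 of 8C -V and 3 of each other condition. Crypts came from unirradiated mice (normal crypt) or from mice 1, 2, 3 or 5 days after irradiation (IR) with or without VPA and EPZ6438 (+VE), with 2 libraries per group, and per the study's methods the irradiated mice were 8-week-old C57BL/6 females given a single dose of 12 Gy and daily gavage of VPA at 40 mg/kg and EPZ6438 at 0.6 mg/kg. The organoids came from mice of 6 to 12 weeks. The study's figure legends count replicates of the RNA-seq as mice, and the labels tie no library to an animal, so p-values measure the spread between these libraries, and whether the up to 7 organoid libraries of a condition each came from another mouse is not given.

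Values were TPM, transcript abundances scaled by transcript length and library total, which keep no read depth, so the depth behind each value is unknown. Column totals were 983801 to 988144 TPM in organoids and 819346 to 910935 TPM in crypts, and genes encoded in mitochondrial DNA took 1.52% to 6.64% of the total in organoids and 10.6% to 48.4% in crypts. Organoid libraries numbered 7 stood apart, with mt-Nd3, a mitochondrially encoded core subunit, at 153 to 356 TPM against 0 to 10.4 TPM in the 45 others. Libraries numbered 1 to 3 and 4 to 6 also differed in several comparisons, so counts within each set, and values of some members, are given beside the pooled ones. Of 5 epithelial markers, all 5 had a mean of at least 1 TPM in both tissues, and none of 5 muscle and stroma markers did. The immune markers Ptprc, Cd3e, Cd79a, Cd68 and Itgam summed to 2.17 to 15.8 TPM in organoids and 3.42 to 25.8 TPM in crypts. Fewer cells of a type and less RNA per cell cannot be told apart in these bulk libraries.

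All 46 genes passed the minimum mean of 1 TPM in the organoid comparisons. On the TPM scale, which is per transcript length, the highest organoid means were those of Ndufa8 at 550 TPM and Ndufb11 at 525 TPM, both accessory subunits of the membrane arm. The 8 assembly factors lay lower, from 26.7 TPM for Ndufaf2 to 130 TPM for Ndufaf8. The lowest means were those of Ndufb2 at 1.79 TPM and Ndufa4l2 at 15.1 TPM. Within conditions, the least variable gene was Ndufa10, with a mean coefficient of variation of 3.93% over the 10 conditions, and the most variable was Ndufa4l2, at 61.8%. Levels in organoids and crypts were not compared, because the ratio of the crypt mean to the organoid mean ran from 0.0161 for Ndufa4l2 to 154 for Ndufb2, and the same ratio was 2170 for mt-Nd4l. The study's methods describe a single pipeline for bulk RNA-seq, and how TPM were derived from its counts is not given in the sources used here.

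The mean log2(TPM + 1) over the 46 genes, a summary of the level of the whole group in a library, hardly separated the organoid conditions. It was 7.10 ± 0.169 (SD, n = 7) in ENR, 7.20 ± 0.170 (n = 7) in 8C, 7.04 ± 0.0777 (n = 7) in 8C -VE and 7.11 ± 0.148 (n = 3) in ENR +VE. The libraries of these conditions overlapped, and over all 49 organoid libraries the mean ran from 6.88 to 7.47.

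**Figure D1:**
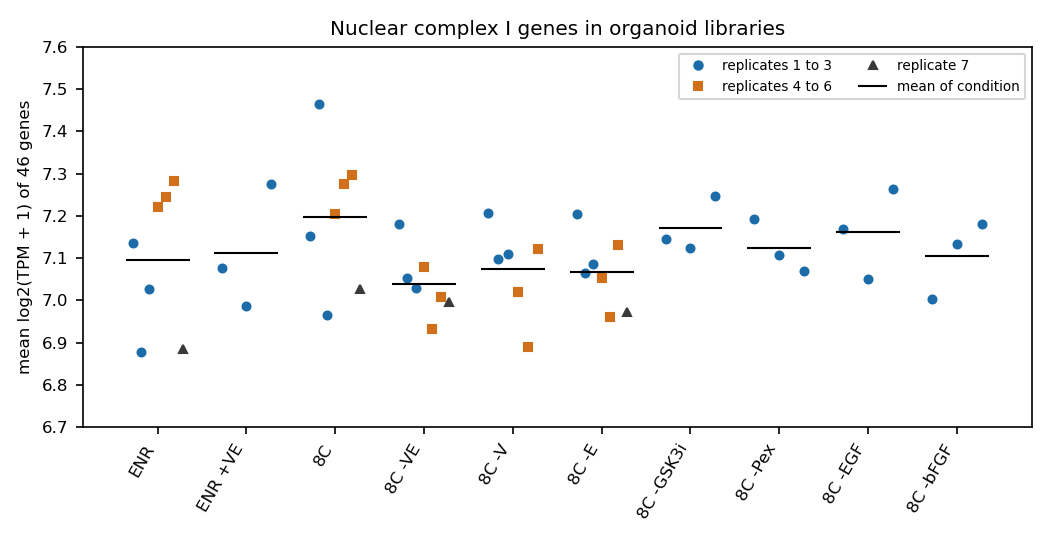
Mean log2(TPM + 1) of the 46 nuclear complex I genes (vertical axis, shown from 6.7 so that the libraries can be told apart) in each of the 49 organoid libraries by culture condition, with symbols for replicate numbers and a line at the mean of each condition. The ranges of the conditions overlapped, and the 8C mean of 7.20 and the 8C -VE mean of 7.04 were the highest and the lowest.

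To show the DNA near the start of members called in a comparison below, the 200 bases before the RefSeq start of 5 genes are given, from RefSeq promoters on GRCm38.p6, each read 5′ to 3′ on the strand of its gene. Gene coordinates elsewhere in the text are from GENCODE, and their starts can differ. In GENCODE the Ndufa10 and Ndufb4 genes reach to 92473860 and 37654453, so part of each of these 2 stretches lies within the gene. Short motifs of 5 factors were searched on both strands of the 300-base window from 250 bases before to 50 bases after the start, and matches within the printed stretch are in capitals. Ndufa11, chr17:56717562-56717761 on the plus strand, holds the NRF1 letters GCATGCG on both strands, overlapping each other. Ndufaf1, chr2:119662835-119663034 on the minus strand, holds the ETS/GABPA letters CCGGAAG. Ndufb4, chr16:37654369-37654568 on the minus strand, holds the ERR letters AAGGTCA and, on the other strand, the SP1 letters GGGCGG. Ndufv3, chr17:31519915-31520114 on the plus strand, and Ndufa10, chr1:92473759-92473958 on the minus strand, hold SP1 letters, which Ndufa10 has in 2 places on the other strand.
Ndufa11: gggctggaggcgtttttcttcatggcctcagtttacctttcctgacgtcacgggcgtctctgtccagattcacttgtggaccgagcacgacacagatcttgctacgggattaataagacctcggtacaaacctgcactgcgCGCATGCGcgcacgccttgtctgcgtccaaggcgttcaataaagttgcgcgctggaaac
Ndufaf1: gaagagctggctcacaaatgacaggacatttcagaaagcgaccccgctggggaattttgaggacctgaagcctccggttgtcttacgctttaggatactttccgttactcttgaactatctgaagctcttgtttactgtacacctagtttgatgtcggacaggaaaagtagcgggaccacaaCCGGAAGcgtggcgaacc
Ndufb4: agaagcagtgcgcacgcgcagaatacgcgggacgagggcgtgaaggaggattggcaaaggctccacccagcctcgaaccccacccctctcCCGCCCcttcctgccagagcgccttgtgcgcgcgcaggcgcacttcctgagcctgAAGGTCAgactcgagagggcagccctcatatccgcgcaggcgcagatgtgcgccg
Ndufv3: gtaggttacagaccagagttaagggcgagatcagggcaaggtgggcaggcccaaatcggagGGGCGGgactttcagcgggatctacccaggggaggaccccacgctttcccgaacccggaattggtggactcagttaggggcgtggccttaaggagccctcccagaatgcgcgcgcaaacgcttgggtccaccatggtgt
Ndufa10: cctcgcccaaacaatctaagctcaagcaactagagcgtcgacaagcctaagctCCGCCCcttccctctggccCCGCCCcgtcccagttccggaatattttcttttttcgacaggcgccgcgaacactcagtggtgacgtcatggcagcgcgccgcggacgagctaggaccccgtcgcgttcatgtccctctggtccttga
Promoters were matched by symbol for 40 of the 46 genes, and those of the other 6 were not analysed here. The NRF1 letters were in 5 of the 40 windows (12.5%) against 3.64% of all 27025 promoters, the YY1 letters AAGATGG in 8 (20.0%) against 6.48%, and the SP1 letters in 21 (52.5%) against 35.9%. The ETS/GABPA letters were in 6 (15.0%) against 9.12% and the ERR letters in 3 (7.5%) against 4.66%. A match of these letters is a description and was not tested as a binding site.

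The comparison of 8C with ENR asks how the regenerative medium as a whole changed the group. By limma with Benjamini-Hochberg adjustment over all genes, 8 of 46 members passed an adjusted p of 0.05 (17.4%) against 35.1% of all genes tested, with 5 higher (25.4% of all genes) and 3 lower (9.7%) in 8C. The median log2 difference was 0.09 over the members and 0.08 over all genes. The 5 that rose were Ndufa4l2, the accessory subunits Ndufs4, Ndufv3 and Ndufa1, and the assembly factor Ndufaf2, and the core subunit Ndufs1 and the assembly factor Ndufaf1 were among the 3 that fell. None of the 8 had groups that did not overlap, against 13.9% of all genes higher and 3.37% lower without overlap. The split of the calls depended on scaling: with the trend of each library with transcript length removed, 1 member was higher and 10 were lower (22% and 20.9% of all genes), and with 75th percentile scaling 3 were higher and 3 lower (24.1% and 13.4%). With all 10 organoid groups in the fit 15 members were called, against 41.9% of all genes. Without replicate 1 of both conditions the count fell to 3, and without replicate 6 to 4.

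Ndufs1, the core subunit that carries most of the iron-sulfur clusters of the NADH module, had a lowest, median and highest value of 61.4, 69.8 and 88.2 TPM in ENR and of 53.3, 58.2 and 67.5 TPM in 8C, with overlapping ranges and a log2 difference of -0.29 ± 0.10 (adjusted p = 0.0282 by limma). It was called in 14 of 19 alternative settings, and not without replicate 1, 2 or 6 (limma adjusted p = 0.0659, 0.0912 and 0.061), in replicates 4 to 6 alone (0.165) or with all 10 organoid groups in the fit (0.0557). Core subunits that were not called had log2 differences of -0.11 for Ndufv1, 0.01 for Ndufv2, -0.20 for Ndufs3, -0.22 for Ndufs7 and -0.05 for Ndufs8.

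Among the accessory subunits of the matrix arm, Ndufv3 and Ndufs4 rose. Ndufv3, a small subunit of the NADH module (chr17:31520115-31531331 in mm10), had a lowest, median and highest value of 103, 114 and 122 TPM in ENR and of 117, 155 and 176 TPM in 8C. A single 8C library, replicate 3 at 117 TPM, lay within the ENR range. The log2 difference was 0.43 ± 0.10 (adjusted p = 0.00282 by limma). Ndufs4, a subunit needed for late assembly and stability of the complex (chr13:114287795-114388258), had values of 67.2, 92.5 and 117 TPM in ENR and 97.7, 145 and 166 TPM in 8C, with a log2 difference of 0.53 ± 0.14 (adjusted p = 0.0087). Replicate 7 was the lowest library of Ndufs4 in both conditions.

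In the membrane arm, Ndufa1 alone of 20 genes was called, at 353, 407 and 527 TPM (lowest, median, highest) in 8C against 260, 360 and 384 TPM in ENR (log2 difference 0.32 ± 0.12; adjusted p = 0.0496), and in 13 of 19 alternative settings it was not. Of the 8 assembly factors, Ndufaf2, which binds a late assembly intermediate, rose from 21.7 ± 3.93 TPM to 32.5 ± 8.84 TPM (log2 difference 0.54 ± 0.18; adjusted p = 0.0257). Ndufaf2 was not called in 7 of 19 alternative settings, with log2 differences from 0.29 to 0.77. Ndufaf1, a factor of membrane arm assembly, fell from 53.5 ± 3.62 TPM to 43.6 ± 4.88 TPM (log2 difference -0.29 ± 0.09; adjusted p = 0.018).

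Ndufa4l2 (chr10:127514967-127517154) was the only member called with at least a 2-fold change, against 11.9% of all genes higher and 3.31% lower on that rule. Its lowest, median and highest values were 2.08, 9.98 and 15.3 TPM in ENR and 5.82, 33.0 and 63.5 TPM in 8C. The ranges overlapped over all libraries and were separate within each set: in replicates 1 to 3 the gene ran from 2.08 to 4.51 TPM in ENR and from 5.82 to 11.7 TPM in 8C, and in replicates 4 to 6 from 9.98 to 15.3 TPM in ENR and from 33.0 to 52.1 TPM in 8C. The pooled log2 difference was 1.47 ± 0.53 (adjusted p = 0.0403), and it was not called in 9 of 19 alternative settings.

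Within library sets the number of members called in 8C against ENR was 5 (3 higher, 2 lower) in replicates 1 to 3, against 33.5% of all genes, and 19 (7 higher, 12 lower) in replicates 4 to 6, against 49.6%. The member median was 0.193 in the first set and -0.041 in the second. In the same order, Ndufa1 was at 0.48 and 0.10, Ndufaf2 at 0.77 and 0.29, Ndufs4 at 0.67 and 0.38 and Ndufv3 at 0.34 and 0.52. Ndufs1 was at -0.43 and -0.16 and Ndufaf1 at -0.30 and -0.35. No member's difference between the sets passed the interaction test, against 17.3% of all genes.

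The cell type markers moved in the organoid comparisons too, and their part in the members' differences was not tested. The summed stem cell markers ran from 1710 to 2980 TPM in ENR and from 128 to 273 TPM in 8C, the Paneth cell markers from 4730 to 6720 TPM and from 548 to 1420 TPM, and the enterocyte markers from 1180 to 9270 TPM and from 1180 to 3320 TPM. In 8C against ENR 4 of 4 Paneth and 4 of 4 enterocyte markers were called lower, and of 4 stem cell markers 1 was lower and 2 were higher. In ENR the stem cell sum was nearly all Olfm4, which had means of 2500 TPM in ENR, 1090 TPM in ENR +VE, 1380 TPM in 8C -VE, 455 TPM in 8C -V, 824 TPM in 8C -E and 24.2 TPM in 8C, whereas Lgr5 averaged 40.5 TPM in ENR and 65.0 TPM in 8C, Cd44 28.4 and 60.6 TPM, and Ascl2 56.6 and 49.7 TPM. In 8C -VE the ranges of the sums were 825 to 1900 TPM, 4790 to 7520 TPM and 824 to 2990 TPM, and in ENR +VE 1100 to 1440 TPM, 1570 to 1790 TPM and 8440 to 9850 TPM. Without VPA the stem cell and Paneth sums were 379 to 796 TPM and 3080 to 4030 TPM, and without EPZ6438 389 to 1780 TPM and 1820 to 3240 TPM. The epithelial markers overlapped between ENR (6030 to 8710 TPM) and 8C (6360 to 8660 TPM).

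The comparison of 8C with 8C -VE asks what VPA and EPZ6438 added together. In this comparison 7 of 46 members were called (15.2%) against 23.4% of all genes, 6 higher (17.2% of all genes) and 1 lower (6.27%), and the median was 0.11 over the members against 0.01 over all genes. The 6 that rose were accessory subunits: Ndufv3 and Ndufs4 of the matrix arm and Ndufa1, Ndufs5, Ndufb4 and Ndufa11 of the membrane arm. Ndufaf1 fell. None of the 7 core subunits was called, and none of the members was called with a 2-fold change, against 9.06% of all genes higher and 1.62% lower.

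Ndufv3 was the member with the smallest adjusted p, at 89.5, 101 and 117 TPM (lowest, median, highest) in 8C -VE and 117, 155 and 176 TPM in 8C (log2 difference 0.58 ± 0.11; adjusted p = 0.000592 by limma). The ranges met at 117 TPM. Ndufa1, a small hydrophobic subunit of the membrane arm (chrX:37187588-37191163), did not overlap: it ran from 261 to 331 TPM in 8C -VE and from 353 to 527 TPM in 8C (log2 difference 0.50 ± 0.10; adjusted p = 0.000965). Ndufaf1 did not overlap either, at 52.2 to 65.9 TPM in 8C -VE and 35.5 to 51.2 TPM in 8C (log2 difference -0.42 ± 0.10; adjusted p = 0.00427), and it stayed called in all 19 alternative settings. Groups did not overlap for 9.17% of all genes higher and 1.79% lower.

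The other 4 members that rose had log2 differences of 0.44 ± 0.14 for Ndufs4, 0.42 ± 0.11 for Ndufs5, 0.42 ± 0.12 for Ndufb4 and 0.38 ± 0.12 for Ndufa11. Ndufb4 in 8C -VE lay between 46.1 and 55.4 TPM in 6 libraries and at 71.5 TPM in replicate 7, whereas 8C ran from 56.6 to 86.9 TPM. The core subunits Ndufs1 (-0.20), Ndufs7 (-0.18), Ndufs3 (-0.15), Ndufs8 (0.06), Ndufv1 (0.08) and Ndufv2 (0.06) were not called. Ndufa4l2 had a log2 difference of 1.51 ± 0.59 (adjusted p = 0.0756) and was not called. Its ranges were separate within each set, at 2.41 to 5.12 TPM in 8C -VE and 5.82 to 11.7 TPM in 8C in replicates 1 to 3, and at 4.44 to 9.99 TPM and 33.0 to 52.1 TPM in replicates 4 to 6. Within sets, 2 members were called in replicates 1 to 3, both lower (22.8% of all genes called), and 14 in replicates 4 to 6, 13 higher and 1 lower (31.1%), and the difference between the sets was called for 3 members, against 11.5% of all genes. Under quantile normalization 7 were higher and 3 lower (14.2% and 16.7% of all genes), and with the length trend removed 3 were higher and 3 lower (16.9% and 13.4%). With all 10 organoid groups in the fit 15 members were called (13 higher, 2 lower), against 33.5% of all genes. With the replicate number as a block 15 were also called, against 34.3%. Without replicate 5 or replicate 6 the count was 4.

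**Figure D2:**
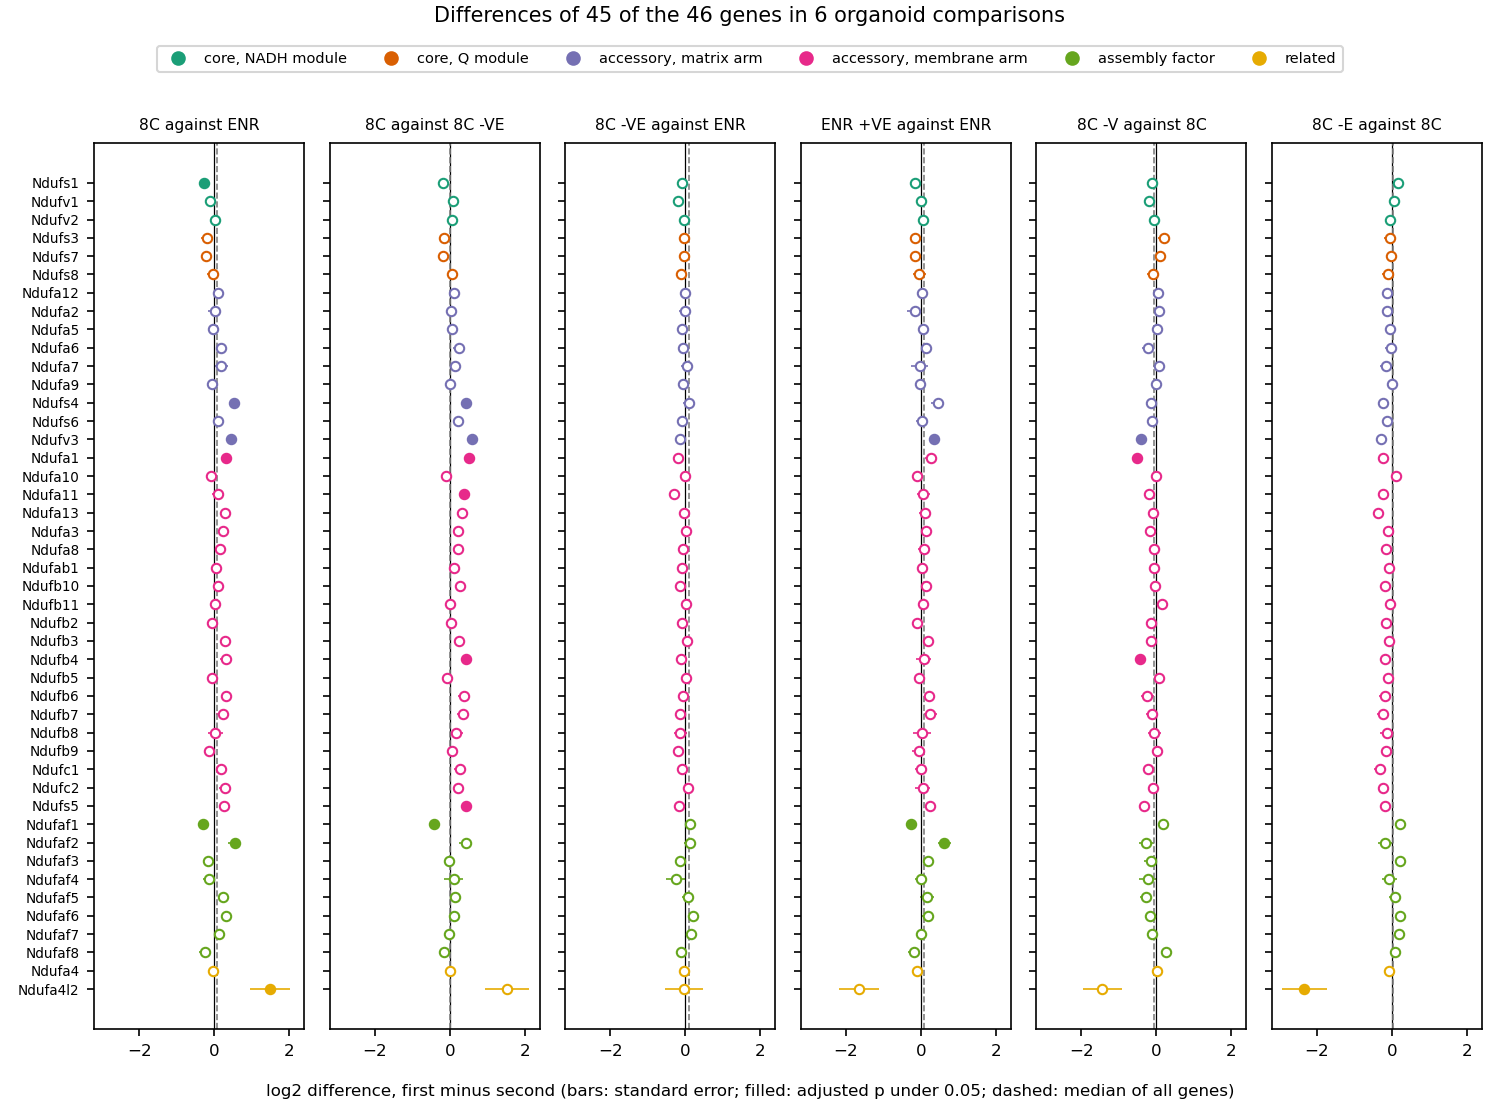
Log2 difference of 45 of the 46 genes (horizontal axis, first condition minus second, bars are standard errors) in 6 organoid comparisons, grouped and coloured by role, with filled points for an adjusted p under 0.05 and a dashed line at the median of all genes tested. Calls over all 46 genes numbered 8, 7, 0, 3, 3 and 1 from left to right, and Ndufa4l2 had the longest error bars.

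In 8C -VE against ENR, which compares the 2 base media without the drugs, no member was called by limma, against 9.35% of all genes. At an unadjusted p under 0.05 there were 3 members, all lower, against 22.4% of all genes. Without the variance trend and robust estimation the adjusted count was also 0, as it was with the replicate number as a block, where 19% of all genes were called. The member median was -0.06 against 0.08 over all genes, and no core subunit had a difference larger than that of Ndufv1, at -0.19 ± 0.09 (adjusted p = 0.217). The pooled value joined 2 library sets that differed. In replicates 1 to 3 the member median was 0.090, with 4 members called higher and 1 lower (43.1% of all genes called), and in replicates 4 to 6 it was -0.212, with 15 members lower and none higher (22.1%). The medians of all genes were 0.085 and 0.121 in the same sets. The interaction of medium and set was called for 20 of the 46 members (all more negative in replicates 4 to 6) against 26.9% of all genes. Ndufs8, a core subunit that holds iron-sulfur clusters, went from 0.26 in replicates 1 to 3 to -0.54 in replicates 4 to 6 (adjusted p of the difference = 0.000503).

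ENR +VE against ENR asks what the pair of drugs did in the conventional medium. Here 3 of 46 members were called (6.52%) against 20.7% of all genes, 2 higher (17.3% of all genes) and 1 lower (3.41%), and the member median was 0.03 against 0.09. Ndufv3 rose from 103 to 122 TPM over the 7 ENR libraries to 133, 139 and 159 TPM in the 3 ENR +VE libraries (log2 difference 0.34 ± 0.08; adjusted p = 0.0133). Ndufaf2 rose from 13.9 to 25.1 TPM to 30.4, 31.4 and 39.3 TPM (0.62 ± 0.18; adjusted p = 0.0277), and Ndufaf1 fell from 49.4 to 59.9 TPM to 42.3, 42.8 and 47.1 TPM (-0.27 ± 0.09; adjusted p = 0.0478). The groups did not overlap for any of these 3, as was so for 19.6% of all genes higher and 4.5% lower. In replicates 1 to 3 alone, the set of all ENR +VE libraries, 6 members were called (4 higher, 2 lower), against 22.8% of all genes higher and 11.7% lower. The log2 differences of Ndufv3, Ndufaf2 and Ndufaf1 in 8C against ENR, which shares the ENR libraries, were 0.43, 0.54 and -0.29.

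Ndufa4l2 had a lower mean in ENR +VE than in ENR, with 0.54, 1.31 and 3.97 TPM against 2.08 to 15.3 TPM (log2 difference -1.65 ± 0.53), a difference that narrowly missed the threshold. All 3 ENR +VE libraries carry numbers 1 to 3, and the ENR libraries with those numbers ran from 2.08 to 4.51 TPM. The core subunits were not called, with log2 differences from -0.16 for Ndufs1 to 0.05 for Ndufv2. The directions depended on scaling: 2 members were higher and 1 lower in the deposited TPM, none higher and 4 lower under quantile normalization (12.6% and 13.5% of all genes), and none higher and 2 lower with 75th percentile scaling (14.9% and 6.24%). Leaving out replicate 1 or replicate 3 left no call, and leaving out replicate 2 left 1.

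Removal of single drugs from 8C asks which of them the changes needed. Without VPA, 3 of 46 members were called (6.52%, against 12.1% of all genes), all lower (9.17% of all genes). Ndufa1 ran from 224 to 324 TPM in 8C -V and from 353 to 527 TPM in 8C, with no overlap (log2 difference -0.53 ± 0.12; adjusted p = 0.00827), as for 5.09% of all genes lower. Ndufv3 fell from 154 ± 23.5 TPM (n = 7) to 115 ± 7.37 TPM (n = 6) (-0.41 ± 0.11; adjusted p = 0.0255), and Ndufb4 had a log2 difference of -0.43 ± 0.13 (adjusted p = 0.0427). Of 19 alternatives Ndufa1 kept its call in 18, Ndufv3 in 12 and Ndufb4 in 7, with Ndufb4 at -0.65 to -0.20. Deviations of same-numbered libraries correlated at 0.106 to 0.598 in this comparison. With the replicate number as a block, 5 members were called against 17.9% of all genes, the 3 above with Ndufa4l2 (-1.19 ± 0.19; adjusted p = 0.0034) and Ndufaf2 (-0.36 ± 0.10; adjusted p = 0.0384). With the length trend removed 1 was higher and 2 were lower (7.34% and 9.36% of all genes). Without replicate 2, 4, 5 or 6 the unblocked count was 1. Calls were counted by set of libraries: none was called in replicates 1 to 3, where 9.58% of all genes were, and 14 (1 higher, 13 lower) were called in replicates 4 to 6, against 34.5%. The difference between the sets was called for 4 members, against 10.9% of all genes. The core subunits had log2 differences from -0.20 for Ndufv1 to 0.20 for Ndufs3, none called. Ndufs3 was at 124 TPM in 8C replicate 7, a number that 8C -V lacks, and with the block its difference was 0.09.

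Without EPZ6438, Ndufa4l2 alone was called (2.17% of members, against 6.77% of all genes), and it was lower, as were 6.11% of all genes. It ran from 0.933 to 4.52 TPM in 6 of the 7 8C -E libraries and stood at 24.3 TPM in replicate 7, and it ran from 5.82 to 63.5 TPM in 8C (log2 difference -2.33 ± 0.59; adjusted p = 0.0214 by limma). Every 8C -E library lay under the 8C library of the same number. Leaving out replicate 1, 4, 5 or 6 took the adjusted p over the threshold, with the log2 difference between -3.09 and -1.90 over all alternatives. The core subunits were not called, with log2 differences such as -0.11 for Ndufs8 and 0.17 for Ndufs1. In replicates 1 to 3 alone 1 member was called, against 9.01% of all genes, and in replicates 4 to 6 alone 6, all lower, against 16.2%. No member's difference between the sets was called, against 6.64% of all genes.

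**Figure D3:**
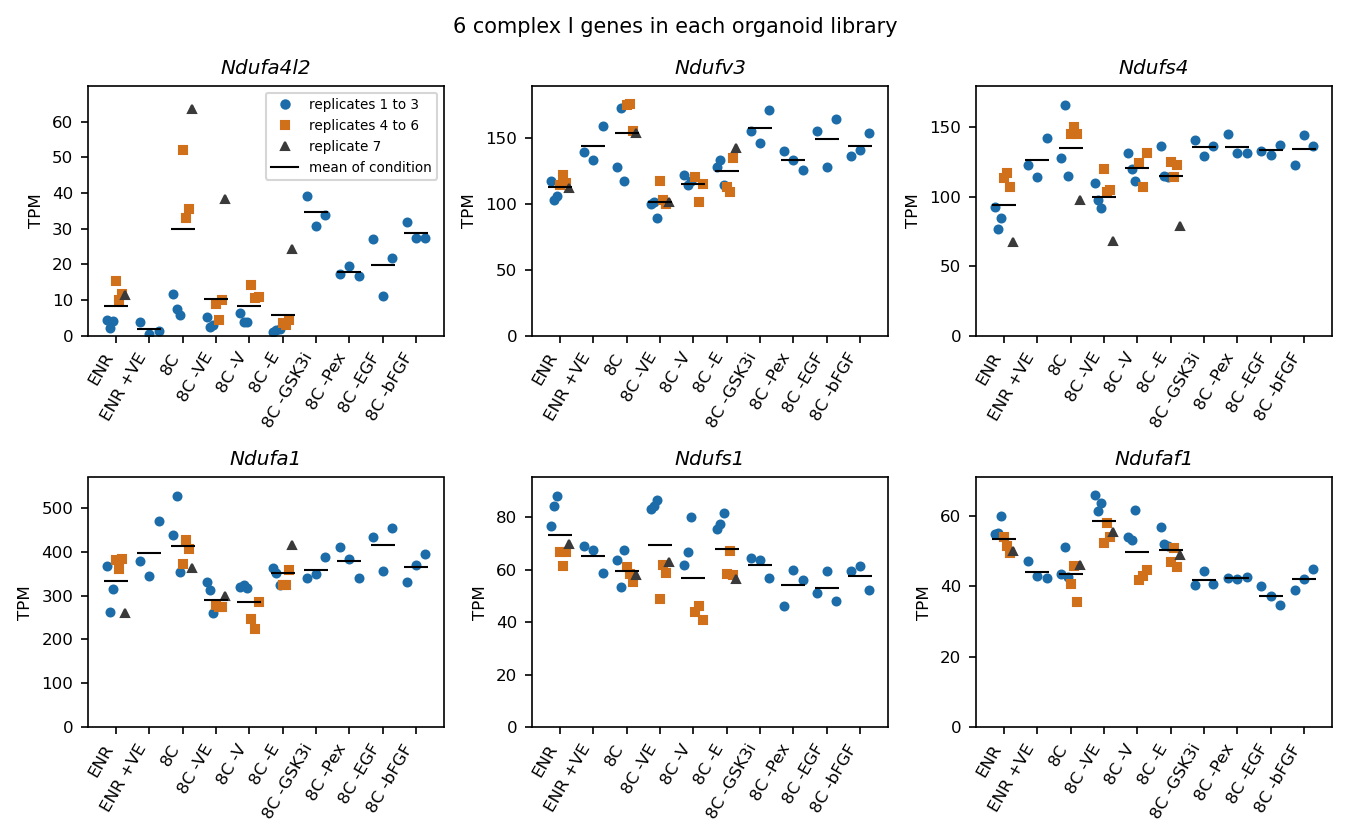
TPM (vertical axes, linear, from 0) of Ndufa4l2, Ndufv3, Ndufs4, Ndufa1, Ndufs1 and Ndufaf1 in each of the 49 organoid libraries by culture condition, with symbols for replicate numbers and lines at the means. Ndufa4l2 ran from 0.54 to 63.5 TPM and differed between replicates 1 to 3 and 4 to 6 of the same condition, whereas Ndufaf1 stayed between 34.6 and 65.9 TPM.

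Single drugs on the base of 8C -VE gave smaller differences, and here the replicate numbers paired the libraries closely. With VPA alone (8C -E against 8C -VE), 2 members were called against 10.6% of all genes (8.12% higher), Ndufa1 (0.28 ± 0.08; adjusted p = 0.031) and Ndufv3 (0.29 ± 0.08; adjusted p = 0.0345), both higher. Of 19 alternatives Ndufa1 was called in 8 and Ndufv3 in 9. Under quantile normalization 2 were higher and 1 lower (7.08% and 4.33% of all genes), with 75th percentile scaling 1 and 1 (8.54% and 3.05%), and with the length trend removed none and 1 (7.74% and 4.91%). With the replicate number as a block 17 members were called, 12 higher and 5 lower, against 35.7% of all genes. In the blocked values Ndufa4l2 was lower (-0.82 ± 0.15; adjusted p = 0.00149), as were the core subunits Ndufs7 (-0.22 ± 0.05) and Ndufs3 (-0.20 ± 0.05), whereas the core subunit Ndufv1 was higher (0.14 ± 0.04). The assembly factors split, with Ndufaf6 (0.32 ± 0.06), Ndufaf3 (0.19 ± 0.06) and Ndufaf7 (0.17 ± 0.05) higher and Ndufaf1 (-0.21 ± 0.04) lower.

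With EPZ6438 alone (8C -V against 8C -VE) no member was called without the block, against 6.05% of all genes, and 6 had an unadjusted p under 0.05, against 14.1%. With the block 12 were called, 6 in each direction, against 28% of all genes. Core subunits were on the lower side, with Ndufs1 at -0.32 ± 0.06 (adjusted p = 0.00323) and Ndufv1 at -0.15 ± 0.04 among them, together with Ndufaf1 at -0.26 ± 0.06, Ndufaf7 at -0.20 ± 0.06 and Ndufa10 at -0.12 ± 0.04. On the higher side were Ndufa4l2 at 0.45 ± 0.12 and the accessory subunits Ndufs4 (0.21), Ndufa13 (0.20), Ndufb10 (0.18), Ndufa11 (0.18) and Ndufv3 (0.18). Ndufaf1 was lower and Ndufv3 and Ndufs4 were higher with either drug alone in these blocked fits, which share the 8C -VE libraries. Ndufa4l2 was lower with VPA alone and higher with EPZ6438 alone. The interaction of VPA and EPZ6438 was called for no member by limma, against 0.653% of all genes, and 1 member had an unadjusted p under 0.05, against 3.81%.

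No member was called on leaving out GSK-3 Inhibitor XV, Pexmetinib, EGF or bFGF from 8C, comparisons of 3 libraries with 7 in which 0%, 0.591%, 0.514% and 0.00779% of all genes were called by limma. At an unadjusted p under 0.05 there was 1 member without GSK-3 Inhibitor XV and none in the other 3, against 6.53%, 13%, 12.7% and 5.56% of all genes. Ndufa4l2 was at 34.5 ± 4.34 TPM without GSK-3 Inhibitor XV, 28.8 ± 2.68 TPM without bFGF, 19.9 ± 8.18 TPM without EGF and 17.8 ± 1.49 TPM without Pexmetinib (SD, n = 3 each). The labels do not say with which set of 8C libraries the omissions were made. The 7 8C libraries join sets that differed, which can widen their spread, so an absent call does not show an absent change. Set beside 8C replicates 1 to 3 (5.82 to 11.7 TPM) and 4 to 6 (33.0 to 52.1 TPM), all 3 libraries without Pexmetinib and all 3 without bFGF (27.3, 27.3 and 31.9 TPM) lay between the sets, as did 2 of 3 without EGF and 1 of 3 without GSK-3 Inhibitor XV. The other library without EGF lay within the first set and the other 2 without GSK-3 Inhibitor XV within the second.

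In crypts, 45 of the 46 genes passed the minimum mean. The exception, Ndufa4l2, reached at most 2.19 TPM. The comparisons with normal crypt ask how the group moved over the days after irradiation. In the deposited TPM most members fell on days 1 to 3 and few were called on day 5: 28 of 45 were called lower on day 1 (62.2%, against 11.9% of all genes), 36 on day 2 (80.0%, against 48%), 43 on day 3 (95.6%, against 72%) and 5 on day 5 (11.1%, against 8.05%), and none higher. The member medians were -0.73, -0.87, -1.15 and -0.33 on the log2 scale. The medians of all genes moved too, by -0.38, -0.64, -1.08 and 0.26, so relative to all genes the members stood at -0.352, -0.227, -0.065 and -0.596. The comparisons share the 2 normal crypt libraries, and without normal crypt replicate 1 the counts were 7, 24, 39 and 0. The day 1 count was also 7 without IR day 1 replicate 2, 14 without IR day 1 replicate 1 and 12 without normal crypt replicate 2. The day 2 count was 24 without IR day 2 replicate 1, and the day 5 count was 1 without either IR day 5 library.

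The share of mitochondrially encoded genes moved with these results, at 12.7% and 18.1% of the total in normal crypt, 29.7% and 31.8% on day 1, 32.6% and 39.9% on day 2, 37.9% and 48.4% on day 3 and 11.8% and 12.3% on day 5. A single gene, mt-Atp8, carried much of it, at 10.0% and 6.03% of the total in normal crypt and 29.7% and 24.6% on day 3, and the number of genes above 1 TPM went from 10606 and 11089 to 8152 and 8564. The part of either in the members' differences was not tested. With those genes removed and the remainder rescaled, 9, 20, 27 and 19 members were called, all lower, with medians of -0.440, -0.434, -0.509 and -0.443 against -0.136, -0.286, -0.587 and 0.166 over all genes, of which 2.93%, 22%, 44.5% and 9% were called lower. With 75th percentile scaling 2, 10, 6 and 16 were called, 1 of the 6 on day 3 higher and all others lower (2.87%, 20.1%, 31.1% and 11.3% of all genes lower), and under quantile normalization 10, 24, 17 and 25, all lower (3.84%, 18%, 24.1% and 12.1%). With the length trend removed 3 members were higher and 11 lower on day 2 (19.8% and 17% of all genes), and 2 higher and 5 lower on day 5 (13.2% and 12.7%). Relative to the median of all genes the members stood at -0.379, -0.442, -0.298 and -0.534 on the 4 days under quantile normalization and at -0.289, -0.160, -0.297 and -0.232 with the length trend removed. Removal of mitochondrially encoded genes and 75th percentile scaling multiply each library by 1 factor, which moves members and all genes alike up to the pseudocount, and with these the day 3 value, -0.065 in the deposited TPM, was 0.077 and 0.151.

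**Figure D4:**
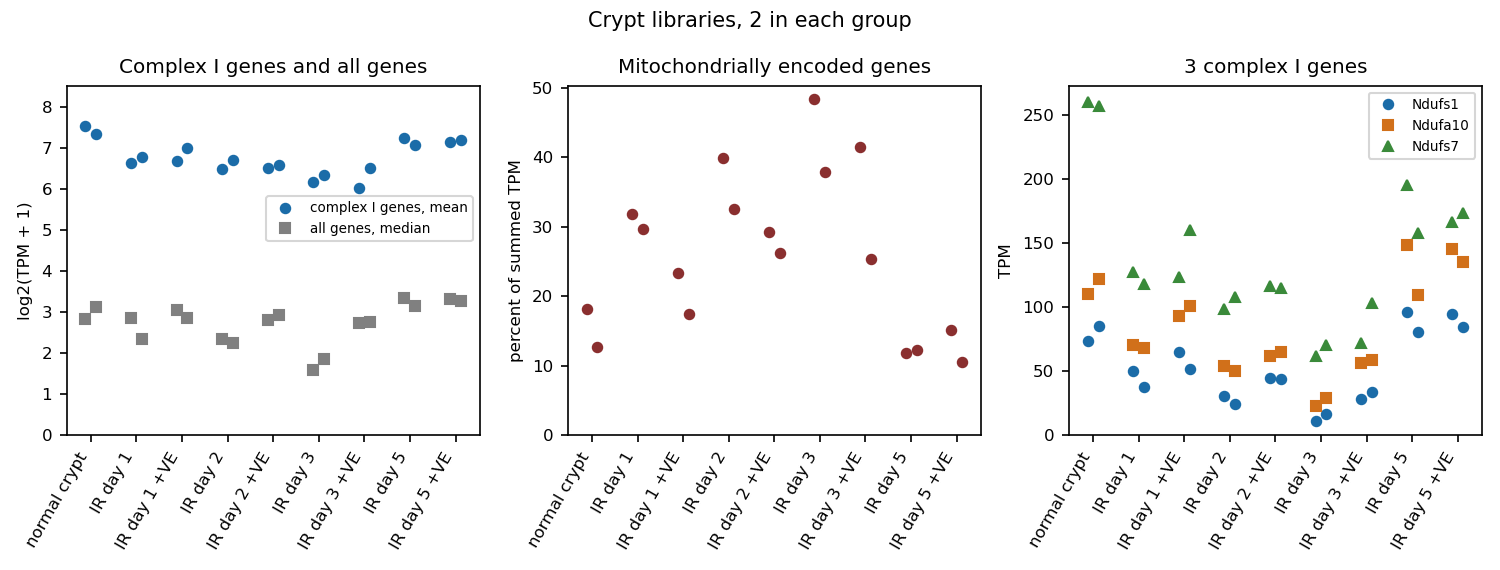
Crypt libraries by group, 2 points for the 2 libraries of each: left, mean log2(TPM + 1) of the complex I genes and median of all genes; middle, percent of summed TPM from mitochondrially encoded genes; right, TPM of Ndufs1, Ndufa10 and Ndufs7. On IR day 3 the mitochondrial share was highest, at 37.9% and 48.4%, and Ndufs1 was lowest, at 10.9 and 16.5 TPM.

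**Figure D5:**
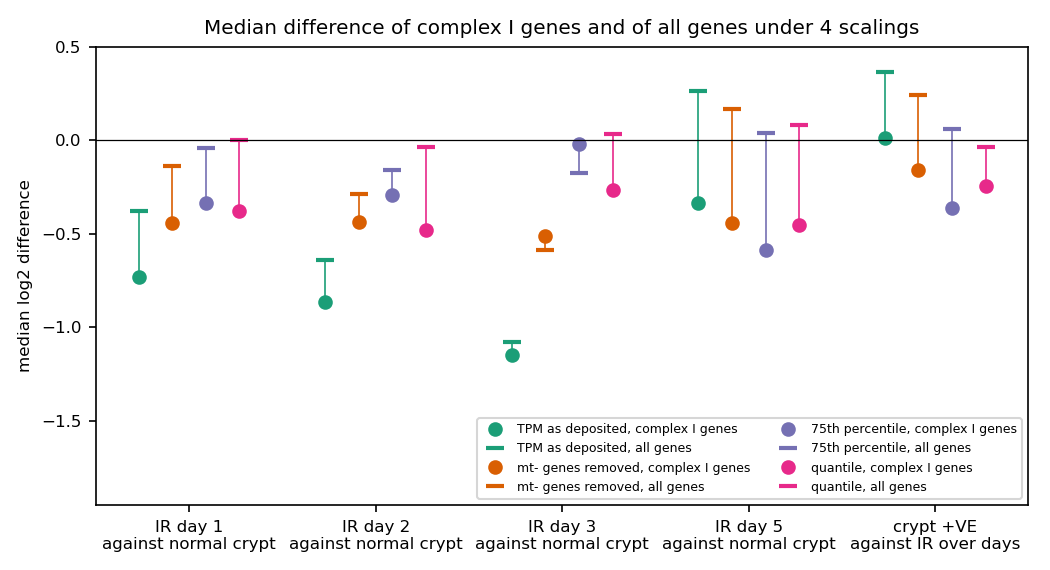
Median log2 difference (vertical axis) of the complex I genes (points) and of all genes tested (bars) in 5 crypt comparisons under 4 scalings of the same values. The points lie under the bars except on IR day 3 with mitochondrially encoded genes removed and with 75th percentile scaling.

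All 7 core subunits were called lower on days 1, 2 and 3, and on day 3 all 7 were at least 2-fold lower, against 53.5% of all genes. Ndufs1 (chr1:63143596-63176833) was at 73.2 and 85.5 TPM in normal crypt, 50.0 and 37.3 TPM on day 1, 30.6 and 24.4 TPM on day 2, 10.9 and 16.5 TPM on day 3 and 95.8 and 80.6 TPM on day 5. Each day to day 3 lay under the one before without overlap, and day 5 overlapped normal crypt. Of all genes, 44.8%, 66.2% and 79.7% lay under normal crypt without overlap on days 1, 2 and 3. The day 3 difference was -2.47 ± 0.23 (adjusted p = 8.98e-07 by limma), and it stayed called in all 15 alternatives, at -2.75 to -1.0. Ndufs7, a subunit of the ubiquinone-binding module (chr10:80249121-80256794), went from 260 and 257 TPM in normal crypt to 61.8 and 70.3 TPM on day 3 (-1.96 ± 0.19; adjusted p = 1.79e-06). It was also the one core subunit called on day 5, at 195 and 158 TPM (-0.56 ± 0.19; adjusted p = 0.0449).

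Day 3 differences of further core subunits were -1.66 ± 0.18 for Ndufs3, -1.64 ± 0.21 for Ndufs8, -1.42 ± 0.23 for Ndufv2 and -1.35 ± 0.21 for Ndufv1. Ndufs3 stayed called in all 15 alternatives, and Ndufv1 and Ndufv2 were not called in 3 of 15 each. On day 1 the core subunits ran from -1.08 for Ndufs7 to -0.67 for Ndufv1, and on day 2 from -1.5 for Ndufs1 to -0.83 for Ndufv1. The day 1 calls were less firm: Ndufs7 kept its call in 15 of 15 alternatives and Ndufs8 in 13. Ndufs1 and Ndufs3 kept it in 8, Ndufv2 in 6 and Ndufv1 in 2. On day 2 Ndufv1 and Ndufv2 kept it in 12 of 15.

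Of the 9 accessory subunits in the matrix arm, 6, 6, 8 and 2 were called lower on days 1, 2, 3 and 5 (11.9%, 48%, 72% and 8.05% of all genes), with a median of -0.82 on day 3. Of the 20 in the membrane arm, 12, 14, 20 and 2 were called lower, with a median of -1.12 on day 3, beside -1.08 over all genes. Ndufa10, which binds a nucleotide on the matrix side of the membrane arm (chr1:92439010-92473860), was at 110 and 122 TPM in normal crypt, 22.4 and 28.6 TPM on day 3 and 148 and 109 TPM on day 5. Its day 3 difference of -2.15 ± 0.18 (adjusted p = 4.81e-07) and that of Ndufb10, at -1.88 ± 0.20 (adjusted p = 2.63e-06), were called in all 15 alternatives. Ndufa5 of the matrix arm had the largest day 1 difference, from 361 and 242 TPM to 136 and 109 TPM (-1.27 ± 0.22; adjusted p = 0.00235). Ndufa1 was not called on day 1 or day 2 (-0.42 and -0.13).

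On day 5 the 5 members called lower were Ndufa13 (-0.73 ± 0.21), Ndufa1 (-0.72 ± 0.18), Ndufa5 (-0.69 ± 0.22), Ndufv3 (-0.57 ± 0.20) and Ndufs7 (-0.56 ± 0.19). Ndufa1 was at 192 and 194 TPM on day 5 against 340 and 297 TPM in normal crypt, and its direction flipped to 0.36 with the length trend removed. No member was called with a 2-fold change that day, against 6.1% of all genes lower.

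Of the 8 assembly factors, 3 were called lower on day 1, all 8 on day 2, 7 on day 3 and none on day 5, against 11.9%, 48%, 72% and 8.05% of all genes. On day 2 the largest differences were those of Ndufaf6, from 41.8 and 39.7 TPM to 14.2 and 13.8 TPM (-1.48 ± 0.26; adjusted p = 0.00048), Ndufaf7 (-1.38 ± 0.24; adjusted p = 0.000405) and Ndufaf4 (-1.34 ± 0.23; adjusted p = 0.000373), and these 3 were called in all 15 alternatives. The other 5 ran from -1.10 for Ndufaf1 to -0.68 for Ndufaf5 and were called in fewer alternatives, 11 of 15 for Ndufaf1 and Ndufaf3, 10 for Ndufaf8, 9 for Ndufaf2 and 6 for Ndufaf5. Ndufaf8 turned to 0.07 with mitochondrially encoded genes and length trend both removed. On day 3 Ndufaf1 was at 3.53 and 6.32 TPM against 15.3 and 13.7 TPM. Directions on day 3 depended on scaling for Ndufaf4 and Ndufaf7, which were just over 0 under quantile normalization (0.04 and 0.03), and for Ndufaf2 with 75th percentile scaling (0.01).

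The cell type markers moved over the same days, and their part in the members' differences was not tested. The 5 epithelial markers summed to 3420 to 4320 TPM in normal crypt, 2760 to 3290 TPM on day 1, 3760 to 3800 TPM on day 2, within the normal range, and 2010 to 2960 TPM on day 3. The enterocyte markers summed to 5380 to 10100 TPM in normal crypt, 14400 to 15200 TPM on day 1, 18800 to 21900 TPM on day 2 and 1520 to 4180 TPM on day 3. The 3 cycling markers went from 293 to 370 TPM in normal crypt to 33.3 to 41.5 TPM on day 2 and 52.9 to 65.6 TPM on day 3. Of the 4 stem cell markers, Olfm4 was at 201 and 364 TPM in normal crypt and 5.79 and 8.00 TPM on day 3, Ascl2 overlapped (4.36 to 12.7 TPM and 4.24 to 7.94 TPM), Cd44 was at 2.79 to 4.05 TPM and 8.01 to 10.0 TPM, and Lgr5 was under the minimum mean. The 5 immune markers, of which Cd79a had a mean under 1 TPM in crypts, summed to 22.2 to 25.8 TPM in normal crypt and 5.31 to 8.37 TPM on day 3. Paneth markers were at 9500 and 22600 TPM in normal crypt and 4490 and 6650 TPM on day 2. On day 5 Paneth markers were at 5420 and 5840 TPM and immune markers at 3.59 and 4.15 TPM. Enteroendocrine markers were at 107 and 57.3 TPM that day, against 240 and 331 TPM in normal crypt. Epithelial, enterocyte and cycling markers overlapped normal crypt on day 5.

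Crypts of treated mice were compared with those of untreated irradiated mice over the 4 days to ask what VPA and EPZ6438 did in vivo. Among 45 members 2 were called, both higher (4.44%, against 55.7% of all genes, 55.6% higher), and the member median was 0.02 against 0.37 over all genes. The 2 were Ndufs1 (0.56 ± 0.11; adjusted p = 0.00142 by limma) and Ndufa10 (0.51 ± 0.09; adjusted p = 0.000915). Neither was called with the length trend removed (0.02 and 0.16; 3 other members lower) or with 75th percentile scaling (0.19 and 0.13), Ndufs1 was not called under quantile normalization (0.21), and it turned to -0.06 with mitochondrially encoded genes and length trend both removed. The members' direction depended on scaling: the median was -0.160 with mitochondrially encoded genes removed (2 members higher, 11 lower), -0.362 with 75th percentile scaling (none higher, 32 lower) and -0.242 under quantile normalization (1 higher, 18 lower). Of all genes, 30.9% were higher and 1.76% lower in the first of these scalings, 18.9% and 8.76% in the second and 9.26% and 6.7% in the third. Relative to the median of all genes the members stood at -0.351 in the deposited TPM, -0.207 under quantile normalization and -0.170 with the length trend removed. Removal of mitochondrially encoded genes and 75th percentile scaling, which multiply each library by 1 factor and so are no independent check of this value, gave -0.405 and -0.427. Without IR day 3 +VE replicate 1, 4 members were called. The mitochondrial share also differed, at 25.4% and 41.5% in IR day 3 +VE against 37.9% and 48.4% in IR day 3.

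By day, members were called on day 3 only, with 3 higher against 54.3% of all genes. The direction of these calls depended on scaling: with mitochondrially encoded genes removed 2 were higher and 16 lower (40.4% and 1.46% of all genes), under quantile normalization 2 and 24 (17.1% and 14.5%), with 75th percentile scaling 2 and 33 (27.3% and 10.7%), and with the length trend removed 1 and 18 (10.3% and 8.95%). Ndufa10 was at 56.5 and 58.7 TPM in IR day 3 +VE against 22.4 and 28.6 TPM in IR day 3 (1.16 ± 0.18; adjusted p = 0.000317), and Ndufs1 was at 27.9 and 33.4 TPM against 10.9 and 16.5 TPM (1.13 ± 0.23; adjusted p = 0.00108). With the length trend removed Ndufs1 was at 0.01 and not called, and with mitochondrially encoded genes removed as well it turned to -0.15. The groups did not overlap for either gene, as for 71% of all genes higher. Ndufaf4 was at 10.9 and 17.7 TPM against 7.67 and 9.45 TPM (0.65 ± 0.23; adjusted p = 0.0266), and its direction flipped under quantile normalization (-0.20), 75th percentile scaling (-0.005) and removal of the length trend (-0.16). The other core subunits ran from -0.29 for Ndufv2 to 0.38 for Ndufs7 on day 3, none called. On days 1, 2 and 5 no member was called by limma, against 0.00945%, 17.8% and 0.056% of all genes, and 1, 2 and 0 members had an unadjusted p under 0.05, against 13.7%, 38.9% and 2.12%. Other measures differed between these groups, and their part was not tested. In IR day 3 +VE against IR day 3, genes above 1 TPM numbered 10692 and 10712 against 8152 and 8564, and epithelial markers summed to 4050 to 4240 TPM against 2010 to 2960 TPM, stem cell markers to 55.3 to 68.9 TPM against 20.4 to 23.9 TPM, Paneth markers to 15800 to 22500 TPM against 8120 to 15200 TPM, cycling markers to 94.0 to 169 TPM against 52.9 to 65.6 TPM and immune markers to 12.3 to 15.5 TPM against 5.31 to 8.37 TPM.

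The mt-Nd genes encode the mitochondrial part of the core. Their median difference from normal crypt was 0.52, 0.58, 0.06 and -0.67 on days 1, 2, 3 and 5, beside -0.73, -0.87, -1.15 and -0.33 for the nuclear members, and the difference between these groups of genes was not tested. None of the 7 was called on day 1. On day 2 mt-Nd1 (1.04 ± 0.27; adjusted p = 0.00581 by limma) and mt-Nd2 (0.78 ± 0.31; adjusted p = 0.044) were higher. On day 3 mt-Nd1 was higher (1.42 ± 0.27; adjusted p = 0.000303), while mt-Nd2 (0.67), mt-Nd3 (1.20), mt-Nd4 (-0.01), mt-Nd4l (0.06), mt-Nd5 (-0.26) and mt-Nd6 (-0.79) were not called. On day 5 mt-Nd3 was lower (-2.05 ± 0.59; adjusted p = 0.0218). In +VE against IR over days mt-Nd1 (-0.50 ± 0.14) and mt-Nd3 (-0.97 ± 0.30) were lower. On day 3 alone, +VE against IR had mt-Nd3 lower (-1.65; adjusted p = 0.0306 by limma) and mt-Nd5 higher (1.10; adjusted p = 0.0365). In the 6 main organoid comparisons none of the 7 was called.

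Other gene lists of the same organelle are given for scale, by counts and medians alone. In 8C against ENR, complex II had 1 of 4 lower, complex III 2 of 9 lower, complex IV 0 of 10 and complex V 2 of 13 lower, and of 12 TCA cycle genes 1 was higher and 5 were lower, beside 25.4% of all genes higher and 9.7% lower. Of 11 further complex I assembly factors, the iron-sulfur cluster factor Nubpl was higher (0.74) and Aifm1, Tmem186 and Tmem70 were lower. Among 11 regulators, Ppargc1a, a coactivator of mitochondrial gene expression, was higher (1.27; adjusted p = 0.00381), Tfb1m was higher (0.54), and Ppargc1b (-0.63) and Tfam (-0.37), the mitochondrial DNA packaging factor, were lower. On IR day 3 the medians were -1.60 for complex II, -1.29 for complex III, -1.17 for complex IV, -1.37 for complex V, -1.79 for the TCA cycle and -0.90 for 78 mitochondrial ribosomal genes, beside -1.15 for the complex I members and -1.08 over all genes. In +VE against IR over days, 8 of 11 regulators and 9 of 12 TCA cycle genes were called higher, with medians of 0.49 and 0.40, beside 55.6% and a median of 0.37 over all genes and 2 of 45 complex I members.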

How the data were processed

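RNA-seq of 49 organoid and 18 crypt libraries was deposited as a table of TPM values per gene. Per the submitters' processing notes, tools named for these data were Trimmomatic 0.39, STAR 2.7.3a and featureCounts, with genome build mm10. The authors deposited TPM, which is scaled within each library, so counts and depth are unknown and a large share taken by a few genes lowers all others. Differences were fitted to log2(TPM + 1) with limma 3.58.1 in R 4.3.3 (variance trend, robust estimation) over genes that averaged 1 TPM or more in the libraries compared, and p-values were adjusted over all those genes by the Benjamini-Hochberg method. A call is an adjusted p under 0.05. Fold changes are on the log2(TPM + 1) scale, which understates those of low genes. Organoid comparisons used the libraries of the groups compared, and crypt comparisons used one fit of 9 groups, so groups of 2 share one estimate of the spread. The code was tested on simulated data in which few genes changed. Of planted changes of 0.5 on the log2 scale, 25% were recovered for 8C against ENR and 4.41% for IR day 3 against normal crypt. Of planted changes of 1, 75.8% and 34.8% were recovered. A member that was not called may therefore still have changed.

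The members and gene lists were chosen with earlier results of these data known. Named with values were the core subunits, of which 1 is not reported here by name, the 4 largest rises and falls among called members, members called on the 2-fold rule, Ndufa4l2 and assembly factors. Samples were grouped by the submitters' labels. A cut of 0.1 on the correlation of deviations in every same-numbered pair was passed by 4 comparisons. Their lowest correlations were 0.313 for 8C -VE against ENR, 0.106 for 8C -V against 8C, 0.647 for 8C -E against 8C -VE and 0.69 for 8C -V against 8C -VE. For these 4 comparisons the replicate number was also fitted as a block. The cut left out 8C against 8C -VE and 8C -E against 8C. Their mean correlations of 0.407 and 0.467 were near the 0.419 of 8C -V against 8C. Alternatives were another pseudocount (0.1), other minimums, quantile and 75th percentile scaling, removal of mitochondrially encoded genes or of the trend with transcript length, the block, other fits, library sets and leaving out each replicate. The difference between replicates 1 to 3 and 4 to 6, the crossed replicate numbers and the joint removal of mitochondrially encoded genes and length trend were added after seeing the data. Transcript lengths came from GENCODE M21 and promoters from RefSeq on GRCm38.p6.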

Additional observations from a re-analysis of the deposited data

Results flagged for a closer look

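Within organoid conditions, Dixon's test was run 110 times, each for 1 named gene or for the mean of all members in 1 condition. In 8 of the 110 tests 1 library lay far from the others, and 7 of the 8 were libraries numbered 7. Chance gives about 1 in 20 for a single test. These tests share libraries and are not independent, so their count cannot be set against that rate. Ndufs3 was at 163 TPM in 8C -VE replicate 7 against 213 to 248 TPM in the other libraries of that condition, and at 123 TPM in 8C -E replicate 7 against 186 to 223 TPM. Ndufs4 was at 78.7 TPM in 8C -E replicate 7 against 114 to 136 TPM, Ndufaf2 at 13.9 TPM in ENR replicate 7 against 19.8 to 25.1 TPM, and Ndufaf7 at 35.9 TPM in 8C -VE replicate 7 against 48.2 to 56.2 TPM. In the upward direction, Ndufa4l2 was at 24.3 TPM in 8C -E replicate 7 against 0.933 to 4.52 TPM, and Ndufb4 at 71.5 TPM in 8C -VE replicate 7 against 46.1 to 55.4 TPM. The remaining case was Ndufv3 in 8C -V replicate 5, at 101 TPM against 114 to 122 TPM.

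Differences also varied between replicates 1 to 3 and 4 to 6 by a test of the interaction in limma. This held for 3 members in 8C against 8C -VE (Ndufaf4, Ndufaf6 and Ndufb11), 20 in 8C -VE against ENR and 4 in 8C -V against 8C (Ndufaf6, Ndufs1, Ndufa10 and Ndufb11), against 11.5%, 26.9% and 10.9% of all genes. What distinguishes the library sets is not given in the labels.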

How the results depend on the processing

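Counts of members called depended on the setting, and where no other reason is given the cause was not tested. A count without a share of all genes here or above shows this dependence only and is no result about the members. Asking for a 2-fold change left fewer calls by construction: 1 in 8C against ENR, 0 in 8C against 8C -VE, ENR +VE against ENR and 8C -V against 8C, 5 and 16 on IR days 1 and 2, and 0 on IR day 5 and in +VE against IR. Of all genes, 6.16% and 27.6% were lower on this rule on IR days 1 and 2. One fit of all 10 organoid groups called 15 in 8C against ENR, 15 in 8C against 8C -VE, 5 in 8C -V against 8C and 3 in 8C -E against 8C, as were 41.9%, 33.5%, 21.9% and 10.9% of all genes. Replicates 1 to 3 alone gave 5, 2, 5, 6 and 0 calls in 8C against ENR, 8C against 8C -VE, 8C -VE against ENR, ENR +VE against ENR and 8C -V against 8C. Replicates 4 to 6 alone gave 19, 14 and 15 in the first 3 of these, 14 in 8C -V against 8C and 6 in 8C -E against 8C. With the length trend removed 2 were called in 8C -VE against ENR, 6 in ENR +VE against ENR, and 6, 14 and 14 on IR days 1, 2 and 3. With 75th percentile scaling 1 was called in 8C -V against 8C, 2, 10, 6 and 16 on IR days 1, 2, 3 and 5, and 32 in +VE against IR. Quantile normalization gave 10, 17 and 25 on IR days 1, 3 and 5 and 19 in +VE against IR. Removal of mitochondrially encoded genes gave 9, 20, 27 and 19 on the 4 days and 13 in +VE against IR, and removal together with the length trend gave 5, 13 and 17 on days 1, 2 and 3 and 13 in +VE against IR. Fitting the 2 groups alone gave 1 on IR day 1 and 3 on IR day 5, with fewer samples, and leaving out the variance trend and robust estimation together gave 3 on IR day 5.

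With the replicate number as a block, 15 members were called in 8C against 8C -VE, 9 in ENR +VE against ENR, 5 in 8C -V against 8C and 2 in 8C -E against 8C, as were 34.3%, 36.2%, 17.9% and 11.2% of all genes. The block gave 10 in 8C against ENR, 0 in 8C -VE against ENR (19% of all genes), 34, 39, 44 and 7 on IR days 1, 2, 3 and 5, and 2 in +VE against IR. Apart from 8C -VE against ENR, these counts stand without a share of all genes and are no result about the members. In 8C against ENR, 8C against 8C -VE, ENR +VE against ENR and 8C -E against 8C some same-numbered pairs fell under the cut for pairing (lowest correlations -0.319, 0.0564, -0.207 and 0.0433). Crossed replicate numbers, tried after correlations of -0.185 and -0.153, gave 30 and 36 calls on IR days 1 and 2, also without a share of all genes.

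In organoids, leaving out each replicate number in turn from both conditions gave 3 to 7 calls in 8C against ENR, 4 to 9 in 8C against 8C -VE, 0 to 1 in 8C -VE against ENR, 0 to 3 in ENR +VE against ENR, 1 to 3 in 8C -V against 8C and 0 to 1 in 8C -E against 8C. In crypts, leaving out each library in turn gave 7 to 14, 24 to 35, 39 to 43 and 0 to 6 on IR days 1, 2, 3 and 5, and 2 to 4 in +VE against IR, a lone library being assumed to vary like the other groups.

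Of single-gene values under all alternatives, 955 kept direction and call, 289 kept direction only and 13 reversed, all in crypts. With mitochondrially encoded genes and length trend removed, reversed values were 0.0665 for Ndufaf8 on IR day 2, 0.0162 for Ndufaf4 on IR day 3, 0.26 for Ndufa1 on IR day 5, -0.0635 for Ndufs1 in +VE against IR over days, and -0.24 for Ndufaf4 and -0.15 for Ndufs1 in IR day 3 +VE against IR day 3. With the length trend alone removed, Ndufa1 was at 0.36 on IR day 5 and Ndufaf4 at -0.16 in IR day 3 +VE. Under quantile normalization Ndufaf4 and Ndufaf7 were at 0.0411 and 0.0312 on IR day 3 and Ndufaf4 at -0.20 in IR day 3 +VE. With 75th percentile scaling Ndufaf2 was at 0.0132 on IR day 3 and Ndufaf4 at -0.0046 in IR day 3 +VE. Depth is unknown, so precision rests on the number of libraries, which is 2 per crypt group.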
